A study of Mus musculus with 4 samples.

Results

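The genes described here encode the proteins of the cytosolic ribosome. They were chosen by name as the table rows whose symbol is Rpl or Rps followed by digits, with an optional a, x, y, l or rt ending, together with Rplp0, Rplp1, Rplp2 and Rpsa. Pseudogenes with a -ps name, the Rps6k kinases and Gm models were left out. The rule found 85 of 55401 gene models in the table, 52 of the large subunit and 33 of the small subunit. Of these, 82 had enough counts to be tested, 49 of the large and 33 of the small subunit. The other 3, Rpl3l, Rpl10l and Rpl39l, were at or near 0.

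The series profiled by RNA sequencing the pancreatic tissue beside tumours in mice with pancreatic ductal adenocarcinoma, with Panc02, a mouse pancreatic cancer cell line, named as the cell line. Both genotypes carried such tumours. There were 2 wild-type (WT) libraries and 2 libraries labelled CRFR1-KO, which the series' design describes as a conditional knockout of CRFR1, the receptor for corticotropin-releasing factor. The title places that receptor in mast cells. The labels leave out the driver of the recombinase, the strain, the age and the sex. Nothing in them ties the libraries of a genotype to different animals, and the p-values below therefore rest on library-to-library spread that may be technical. Crhr1, the gene of the receptor, had 0 counts in all 4 libraries, so the targeted gene could not check the labels.

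A ribosome is built from ribosomal RNA and about equal numbers of each protein, so the genes of these proteins are usually expressed together. Their mRNAs begin with a run of pyrimidines (a terminal oligopyrimidine, or TOP, start) through which the kinase mTOR sets how fast they are translated. In the pancreas, acinar cells make large amounts of digestive enzymes and are rich in ribosomes. Ribosomal protein genes are also the richest source of processed pseudogenes, copies of an mRNA pasted back into the genome, and a short read from one copy may match another.

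The members with the largest fold changes between genotypes had near-identical copies, as did 79 of all 85 members. Their sequences are given first. Rps27, a small subunit protein with a zinc finger (ENSMUSG00000090733, chr3:90212522-90213651, minus strand, GRCm38), and Rps27rt, a retrotransposed copy of it (ENSMUSG00000050621, chr9:114982366-114982739, minus strand), share 1 coding sequence, shown here without its stop codon. The 252 bases had 0 differences between the genes.
Rps27 and Rps27rt: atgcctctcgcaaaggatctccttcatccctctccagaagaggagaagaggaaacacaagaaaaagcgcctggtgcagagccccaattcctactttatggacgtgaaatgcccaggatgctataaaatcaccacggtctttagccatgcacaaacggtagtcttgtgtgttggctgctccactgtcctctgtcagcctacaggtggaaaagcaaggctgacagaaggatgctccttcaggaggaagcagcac

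Rpl7a, a large subunit protein (ENSMUSG00000062647, chr2:26910764-26913318, plus strand), differed at 2 of 798 coding bases from each of a pair of annotated processed pseudogenes, Rpl7a-ps11 (chrX:166854211-166855011, plus strand) and Gm8226 (chr9:84423984-84424781, plus strand), which had 0 differences from each other. Counted from the first base of the Rpl7a start codon, the differences were A186G and A747C, with the Rpl7a base first. The windows of 49 bases around both positions, 162 to 210 and 723 to 771, show with a capital the base at which a read can tell the gene from these copies.
Rpl7a, first window: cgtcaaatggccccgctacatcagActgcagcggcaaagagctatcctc
Rpl7a-ps11, first window: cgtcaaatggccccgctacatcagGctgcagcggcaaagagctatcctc
Gm8226, first window: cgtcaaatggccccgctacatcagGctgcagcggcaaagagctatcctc
Rpl7a, second window: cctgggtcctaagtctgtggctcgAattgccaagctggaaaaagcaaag
Rpl7a-ps11, second window: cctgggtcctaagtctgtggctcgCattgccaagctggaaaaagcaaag
Gm8226, second window: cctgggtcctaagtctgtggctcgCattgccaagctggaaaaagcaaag

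The promoters set Rps27 and Rps27rt apart. The windows below, from RefSeq on GRCm38.p6, run from 40 bases before to 30 bases after the annotated start. In the first pair the capitals mark the 29 bases that Rps27 (chr3:90213619-90213688, minus strand) and Rps27rt (chr9:114982710-114982779, minus strand) share near the start of the mRNA. Upstream of the start the longest run they shared was 10 bases.
Rps27: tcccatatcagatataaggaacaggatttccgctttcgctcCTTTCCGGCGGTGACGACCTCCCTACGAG
Rps27rt: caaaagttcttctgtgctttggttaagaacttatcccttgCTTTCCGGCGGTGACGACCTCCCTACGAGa
In the second pair the capitals mark the longest run of pyrimidines in each window. It has 21 bases in Rpl7a (chr2:26910767-26910836, plus strand), beginning at position -14 from the annotated start. In Rps6 (chr4:86857338-86857407, minus strand), shown as an example of a TOP start, it has 10 bases and begins at position -1.
Rpl7a: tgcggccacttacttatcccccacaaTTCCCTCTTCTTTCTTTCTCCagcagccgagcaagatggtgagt
Rps6: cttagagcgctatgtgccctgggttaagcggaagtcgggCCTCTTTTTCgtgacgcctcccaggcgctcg

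Total counts ran from 63495457 to 71203640 per library. The 31 acinar markers listed held 56.9% to 60.4% of all counts, so the labelled tissue was borne out by its defining genes. WT 1 stood apart in markers of some other cell types. Fibroblast markers summed to 493 counts per 1000000 (CPM) against 163 to 234 in the other 3 libraries, and islet markers to 42.6 against 243 to 301.4 CPM. Ductal markers summed to 182 CPM in WT 1 against 81.5 to 112, and macrophage markers to 125 against 45.5 to 93.0 CPM. Endothelial markers did not set WT 1 apart, at 65.2 against 59.2 to 64.6 CPM. Of 6 mast cell markers, Cma1, Fcer1a, Mcpt4 and Tpsb2 were at 0 in every library. The other 2 were Cpa3, at 0.0611 to 0.528 CPM, and Kit, which other cells also express, at 10.7 to 13.98 CPM. CPM here are on library sizes scaled by the trimmed mean of M-values (TMM), which lowers the weight of the few very abundant enzyme genes. In bulk tissue, fewer cells of a type and less RNA per cell cannot be told apart.

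The levels of the ribosomal protein genes varied together from library to library, and the variation did not follow genotype. Their summed level was 8667 CPM in WT 1 and 14445 CPM in WT 2. The first CRFR1-KO library had 12873 CPM and the second 9647 CPM. WT 2 and CRFR1-KO 1 were thus the high libraries and WT 1 and CRFR1-KO 2 the low ones. The WT level was 11556 ± 4086 CPM and the CRFR1-KO level 11260 ± 2281 CPM (SD, n = 2 each), a log2 ratio of -0.037, far inside the spread within either genotype. An exact two-sided permutation test of 2 against 2 libraries cannot give a p below 0.333, so none was run.

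Within WT, the summed level was 1.67-fold higher in library 2 than in library 1, and 82 of 82 tested members were higher there. Over all tested genes the share higher in WT 2 was 48.4%. The median difference was 0.75 on the log2(CPM + 0.5) scale, beside a median absolute difference of 0.27 over all genes. Within CRFR1-KO, library 1 was 1.33-fold above library 2, and 80 of 82 members were higher (49.8% of all genes), by a median of 0.47 against a median absolute difference of 0.22. Counting whole patterns, 78 of 82 members had both WT 2 and CRFR1-KO 1 above both other libraries, as 17.7% of all tested genes did. The exceptions were Rpl7a, Rps27, Rps27rt and Rps4l.

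The size of the swing depended on the scaling and its direction did not. As a percentage of all counts, with no TMM factor, the members took 1.02% and 1.33% of the WT libraries and 1.15% and 0.995% of the CRFR1-KO libraries. The WT ratio was then 1.30-fold and the CRFR1-KO ratio 1.15-fold, with 78 and 80 of 82 members higher in WT 2 and in CRFR1-KO 1. On that scale the median over all tested genes itself moved by -0.30 and -0.17. The low WT library was also the one with the high fibroblast, ductal and macrophage markers and the low islet markers. In CRFR1-KO the low library had 185 CPM of fibroblast and 301.4 CPM of islet markers against 163 and 243 in the high one. Ductal and macrophage markers had 84.2 and 72.3 CPM in that low library against 81.5 and 45.5 in the high one. The part of cell composition in the swing was not tested.

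**Figure D1:**
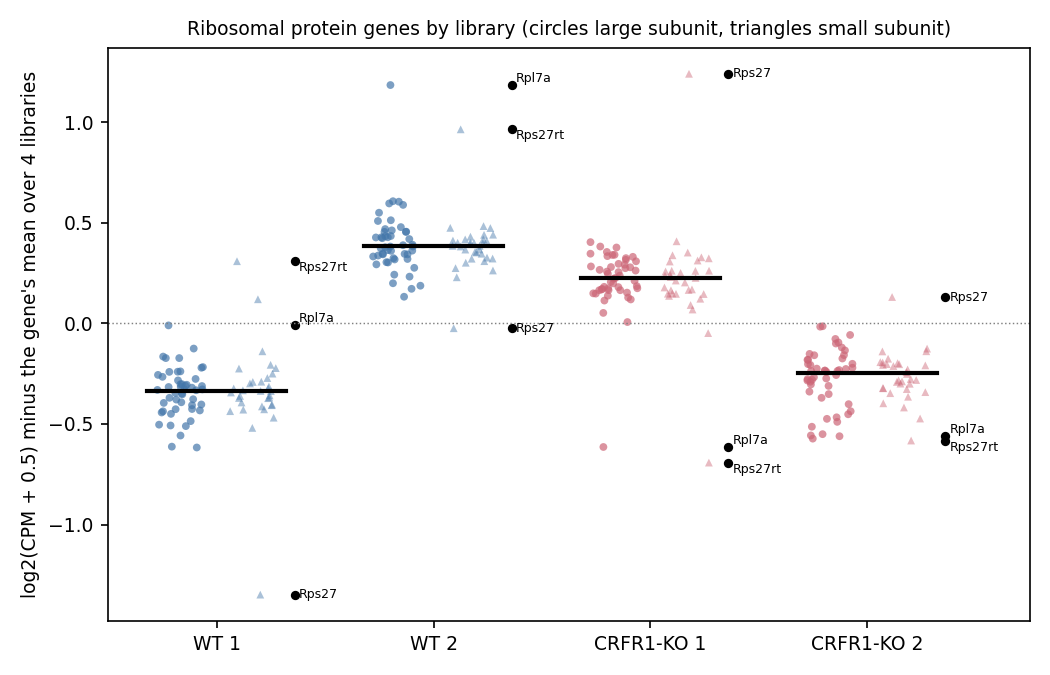
Each tested member's level in each library as log2(CPM + 0.5) minus that gene's mean over the 4 libraries (vertical axis). Circles are large subunit and triangles small subunit genes, black lines are medians (-0.33, 0.38, 0.23 and -0.25 from left to right), and black dots repeat Rps27, Rps27rt and Rpl7a, which leave the cloud.

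The 2 subunits moved in step. Values over libraries are given from here in the order WT 1, WT 2, then CRFR1-KO 1 and 2. The summed large subunit level was 5230, 8689, 7787 and 5866 CPM, and the small subunit level 3437, 5756, 5085 and 3781 CPM. Their ratio stayed between 1.51 and 1.55 in all 4 libraries while the levels moved by up to 1.67-fold. The 10 most counted members, led by Rpl4 and Rplp0, held 33.3%, 33.5%, 34.2% and 36.2% of the members' counts.

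The members' own levels spanned a wide range. Among the 79 with a mean of 5 CPM or more, the median was 113 CPM, the lowest Rpl6l at 8.05 CPM and the highest Rpl4, a protein that lines the exit tunnel, at 564 CPM. Levels of different genes are compared per kilobase of the representative transcript, where the median was 146 CPM per kilobase. By that measure the order at the top was Rpl41, Rpl10, Rplp1, Rplp0 and Rpl13.
Rpl41, the smallest ribosomal protein, had 428, 727, 524 and 453 CPM per kilobase. Rpl10, an X-linked protein added late in the assembly of the large subunit, had 347, 600, 647 and 505. Rplp1 had 347, 592, 552 and 395 CPM per kilobase. The ranges of these neighbours over the libraries overlapped. Within libraries Rpl10 was above Rplp1 in 4 of 4, by very little in WT 1, while Rpl41 was above Rpl10 in both WT libraries and below it in both CRFR1-KO libraries.

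Rplp0, Rplp1 and Rplp2 form the stalk of the large subunit, which recruits elongation factors. Rplp0 had 330, 503, 452 and 367 CPM per kilobase, and Rplp2 only 87.6, 133, 115 and 69.7. The level of Rplp1 over that of Rplp2 per kilobase was 3.96, 4.46, 4.79 and 5.66 over the libraries. Both proteins pair on the stalk. In the small subunit, Rps6, the protein phosphorylated by S6 kinase, had 226, 416, 373 and 274 CPM. Rpsa, also known as the laminin receptor precursor, had 336, 577, 489 and 401 CPM. Both showed the shared pattern, with WT 2 highest and WT 1 lowest.

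The tissue-restricted paralogues Rpl10l, Rpl39l and Rpl3l were nearly silent beside their main copies. Rpl10l and Rpl39l, known from testis, had 0 counts in every library, and Rpl3l, known from muscle, had 2 counts, in WT 2. A floor of 3 counts corresponds to 0.0363 to 0.0480 CPM per library, counting error only. The main copies Rpl10, Rpl39 and Rpl3 had 277 to 517, 19.9 to 36.1 and 191 to 244 CPM. Rps27l, a p53-responsive relative of Rps27, was expressed at 20.7, 30.0, 29.1 and 19.0 CPM and followed the shared pattern. It had more counts than Rps27 in every library (1710, 1961, 1821 and 1244 against 189, 424, 1017 and 476). Rps4l, annotated as a transcribed processed pseudogene, had 124 and 113 counts in the WT libraries and 80 and 62 in the CRFR1-KO libraries, where X-linked Rps4x had 19304 to 28659.

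Between genotypes, 0 of 82 members passed the adjusted threshold of 0.05 with edgeR's quasi-likelihood test and Benjamini-Hochberg adjustment over 15131 genes. Over all genes the called share was 0.0132% lower and 0.0132% higher in the knockout. Without the adjustment, p was under 0.05 for 3 members (4.86% of all genes). These were 2 lower members, Rps27rt and Rpl7a (3.15% of all genes), and 1 higher member, Rps27 (1.71%). DESeq2 called 2 members, Rps27rt and Rpl7a, both lower (0.294% of all genes, and 0.0813% higher). The limma-voom fit called 0 members, and 0 of all genes. The groups did not overlap for 3 lower members (Rps27rt, Rpl7a and Rps4l; 16.9% of all genes) and 1 higher member (Rps27; 16.6%), which are smaller shares than the background.

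The fold changes of the other members lay close to 0. The median log2 fold change was -0.055 over the 82 members, -0.035 in the large and -0.068 in the small subunit, beside -0.0063 over all tested genes. It was below 0 in 61 members, or 74.4%, against 50.8% of all genes, but the median standard error was 0.29, and 76 of 82 members lay within 1 standard error of 0. The direction rested on which libraries were used. Leaving out WT 1 gave a median of -0.37 with 81 members below 0 (48.9% of all genes), and leaving out WT 2 gave 0.37 with 3 members below 0 (49.2%). Leaving out the first CRFR1-KO library gave -0.32 with 79 below 0 (53.2%), and leaving out the second gave 0.17 with 9 below 0 (51.3%). The members at an unadjusted p under 0.05 then numbered 7, 10, 1 and 2, where over all genes the shares were 8.69%, 7.34%, 3.15% and 3.32%. Past the adjusted threshold there were 2 members without WT 1, Rps27rt and Rpl7a (0.253% of all genes). There were 0 without WT 2 (0.43%), without the first CRFR1-KO library (0.0124%) or without the second (0%). Scaled to library totals, 76 members were below 0, with a median of -0.15 where the median of all genes was itself -0.13.

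**Figure D2:**
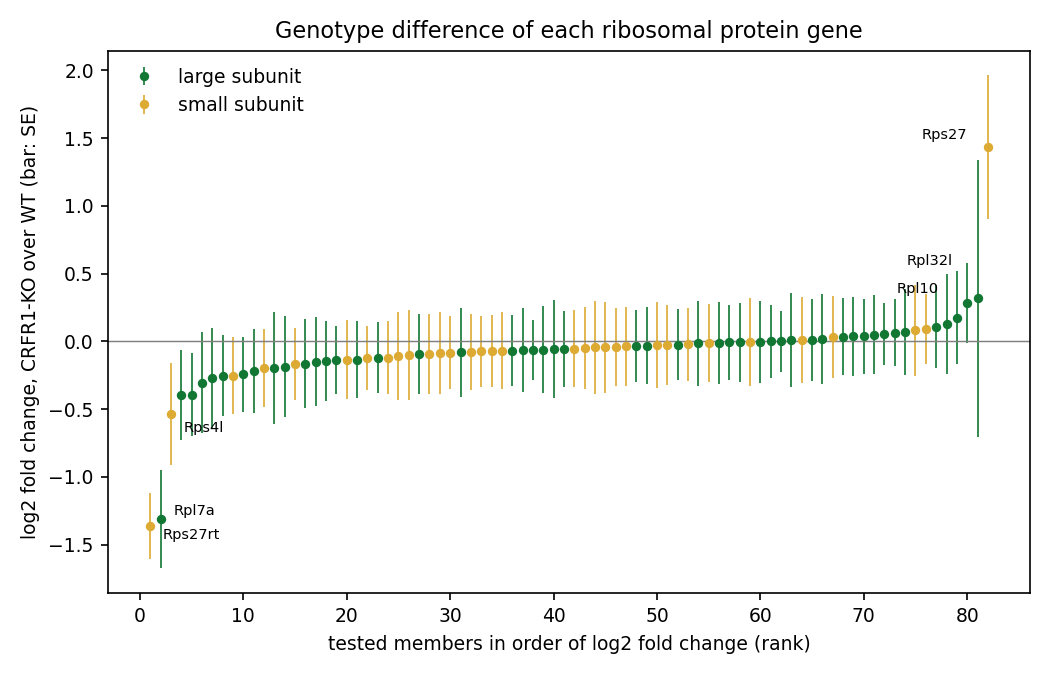
Log2 fold change of CRFR1-KO over WT from edgeR for the 82 tested members in rank order, with 1 standard error as bars, coloured by subunit. Rps27rt and Rpl7a lie near -1.4 and -1.3 and Rps27 near 1.4, and the bars of 76 members reach 0.

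Rps27rt and Rps27 had fold changes of opposite sign while sharing their coding sequence. Rps27rt had 15.6, 24.9, 7.55 and 8.19 CPM over the libraries, so the genotypes did not overlap. Its log2 fold change was -1.36 (SE 0.24, unadjusted p 0.00079, adjusted p 0.46 with edgeR's quasi-likelihood test, adjusted p 0.00043 with DESeq2). Rps27 had 2.29, 6.48, 16.3 and 7.27 CPM, where CRFR1-KO 2 lay just above WT 2. Its log2 fold change was 1.43 (SE 0.53, unadjusted p 0.030, adjusted p 0.9999 with edgeR's quasi-likelihood test, adjusted p 0.9999 with DESeq2). The edgeR value was 0.74 without CRFR1-KO 1, 1.90 without CRFR1-KO 2, 0.86 without WT 1 and 2.37 without WT 2. With their only other counted copy, Gm17241, the summed level was 18.04, 31.6, 24.1 and 15.5 CPM, which is the pattern of the other members. The log2 fold change of the sum was -0.32 (SE 0.31, unadjusted p 0.33, edgeR). What differed was the division. Rps27 took 12.6% and 20.6% of the summed counts in the WT libraries and 67.8% and 46.9% in the knockout libraries.

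Rpl7a had 38.8 and 89.4 CPM in the WT libraries and 25.3 and 26.3 CPM in the knockout libraries, so both WT values lay above both others. Its log2 fold change was -1.31 (SE 0.36, unadjusted p 0.0083, adjusted p 0.84 with edgeR's quasi-likelihood test, adjusted p 0.0050 with DESeq2). Without WT 2, the high library, it was -0.58, and without WT 1 it was -1.79. The deposited counts of Rpl7a-ps11 were 4043, 4455, 5191 and 4069, and those of Gm8226, identical to it in the coding sequence, were 4035, 4399, 5156 and 4024. Each of these pseudogenes thus had more counts than Rpl7a itself (3205, 5852, 1583 and 1722) in 3 of 4 libraries. Summed over its 38 near-identical models, the family had 165, 244, 240 and 180 CPM. The log2 fold change of the sum was 0.038 (SE 0.26, unadjusted p 0.89, edgeR), and Rpl7a held 23.4%, 36.7%, 10.6% and 14.6% of it. Exons of Rpl7a also hold small nucleolar RNA models, whose reads may not be told apart from it. With models that share exons summed, the log2 fold change of Rpl7a was -1.31 (SE 0.36, edgeR).

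The same split appeared at lower size in 3 more families, picked out after their values were seen. Rpl31, near the exit tunnel, shares its 375 coding bases with Rpl31-ps8 (0 differences). Rpl31 had 62.2, 118, 93.8 and 51.8 CPM and held 89.5%, 85.9%, 73.2% and 59.7% of its family's counts. The pseudogene had 488, 1112, 1926 and 2088 counts. Rpl23a, a docking site for factors at the tunnel exit, had 73.8, 132, 90.5 and 65.9 CPM. It held 66.9% and 66.9% of its family in the WT libraries, above the 54.0% and 49.7% in the knockout libraries. Its log2 fold change was -0.39 (SE 0.31) alone and -0.031 (SE 0.30) for the family. Rpl30 had 42.5, 75.04, 55.8 and 33.6 CPM and held 89.2%, 81.8%, 68.7% and 69.2%. Its log2 fold change went from -0.39 (SE 0.33) to -0.10 (SE 0.36).

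Over the 78 tested members with at least 1 near-identical copy, the median difference between genotypes in the member's share of its family was -0.14 percentage points. The mean share was lower in CRFR1-KO by over 10 points in 5 members (Rpl23a, Rpl30, Rpl31, Rpl7a and Rps27rt) and higher by over 10 points in 1 (Rps27). Copies with at least 95% identity over at least 50% of the coding sequence numbered 598, of which 567 are annotated as processed pseudogenes and 484 had counts. Together they held 1284, 2133, 2094 and 1552 CPM, listed apart from the members' own level. A read counted in more than 1 model would enter the family sums more than once. In 8 members, the member held under 50% of its family on average, the lowest of the intron-bearing genes being Rpl21 at 5.77% to 7.10% of 60 models. With all families summed, 0 of 78 families passed the adjusted threshold with edgeR, and 0 had an unadjusted p under 0.05 (4.95% of all genes). Their log2 fold changes ran from -0.53 (Rps4l, which has no such copy) to 0.28 (Rpl10). How the deposited counts treat reads that match several places is not stated in the labels, and whether the division reflects transcription or read placement was not tested.

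**Figure D3:**
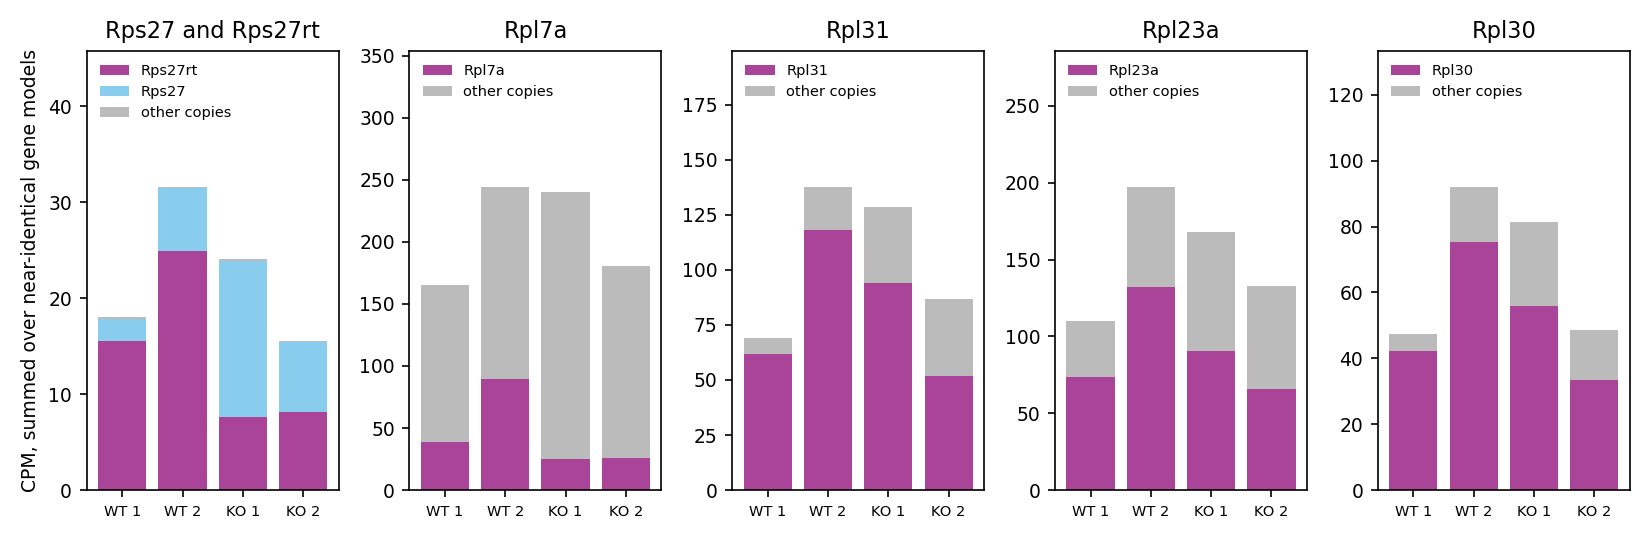
Stacked levels in CPM of 5 families of near-identical gene models by library, with the named member in purple, Rps27 in blue and all other copies in grey. The full bars follow the shared library pattern, while the purple part is a smaller share in both CRFR1-KO libraries (KO) than in either WT library. The share was lower in this way in 25 and higher in 14 of the 78 tested members with a copy.

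Other members at the edges of the ranking had unadjusted p-values above 0.05. Rpl10 had a log2 fold change of 0.28 (SE 0.30), Rpl21 one of 0.13 (SE 0.37) and Rpl6l one of 0.17 (SE 0.34). Rpl32l rested on 7, 21, 18 and 14 counts (0.32, SE 1.02). Rpl6l, Rpl32l, Rpl37rt and Rps4l are annotated as processed pseudogenes in the gene set used, although their names fit the rule. Rps4l was lowest after Rps27rt and Rpl7a, with a log2 fold change of -0.53 (SE 0.38, unadjusted p 0.20, edgeR).

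The swing between the CRFR1-KO libraries was larger in short genes. The median difference of CRFR1-KO 2 minus CRFR1-KO 1 was -0.69 on the log2(CPM + 0.5) scale in the 11 members with up to 300 coding bases. It was -0.58 in 27 members of 301 to 450 bases, -0.45 in 19 of 451 to 600, -0.35 in 18 of 601 to 900 and -0.30 in the 3 above 900. Other protein-coding genes followed the same order at a smaller size, from -0.12 in 268 short genes to 0.023 in 9641 long ones. Across the 78 members annotated as protein coding, Pearson's r with log2 coding length was 0.47 and Spearman's rho 0.63, as a description, since all points share the same 2 libraries. Rpl38 and Rps29 are among the short genes, and the only members above 0 were Rps27rt and Rpl7a. Between the WT libraries the members showed no such order, with medians of 0.74, 0.77, 0.76, 0.74 and 0.61 and r of -0.11. The other protein-coding genes did show one there, from 0.14 in the shortest class to -0.056 in the longest. The part of fragment size or RNA quality in this was not tested.

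**Figure D4:**
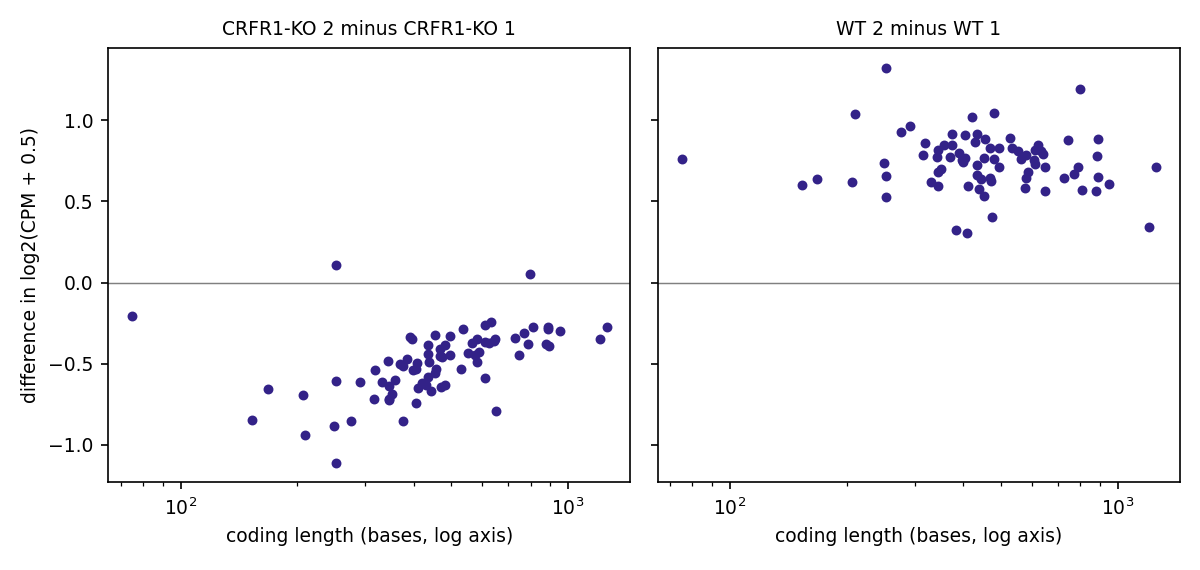
Difference in log2(CPM + 0.5) between the libraries of a genotype against coding length in bases (log axis), 1 point per protein-coding member (n = 78). On the left, CRFR1-KO 2 minus CRFR1-KO 1 approaches 0 with length, and on the right WT 2 minus WT 1 stays near its median at all lengths.

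Other genes of the translation apparatus shared the library pattern in part. Some ribosomal proteins have genes with other kinds of names. Rack1, the scaffold on the small subunit, had 247, 421, 358 and 293 CPM, and Fau, a fusion with a ubiquitin-like protein, 41.9, 78.7, 67.1 and 50.1 CPM, in the members' order of libraries. The paralogue genes Rpl22l1 (13.9, 20.0, 21.0 and 15.0 CPM) and Rpl36al (39.4, 50.6, 50.6 and 41.3 CPM) also had WT 2 and CRFR1-KO 1 high. Rpl7l1 did not, with 15.7, 16.5, 14.2 and 19.0 CPM. Rps3a1, which the rule misses by its ending and which was added after its values were seen, had 222, 370, 315 and 255 CPM. Among 25 other translation genes with TOP mRNAs, 13 were lower and 12 higher in CRFR1-KO, 0 at an unadjusted p under 0.05. Of these, 23 were higher in WT 2 than in WT 1 and 23 higher in CRFR1-KO 1 than in CRFR1-KO 2, with median differences of 0.38 and 0.29. Eef1a1, the elongation factor that delivers tRNA, had 1922, 2508, 2607 and 2039 CPM. Pabpc1, the poly(A)-binding protein, had 92.0, 73.8, 74.8 and 70.9 CPM and did not follow.

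Ribosome assembly genes kept the pattern in WT and not in CRFR1-KO. Of 42, 35 were higher in WT 2 than in WT 1, by a median of 0.30, but only 10 were higher in CRFR1-KO 1 than in CRFR1-KO 2, with a median of -0.23. Between genotypes 18 were lower and 24 higher, and 0 passed the adjusted threshold. Grwd1, a chaperone of the large subunit protein Rpl3, had 1.12, 1.34, 1.87 and 2.54 CPM, with a log2 fold change of 0.84 (SE 0.35, unadjusted p 0.046, edgeR). Eif6, which keeps the new large subunit from joining the small one too early, had 7.03, 8.13, 5.60 and 5.45 CPM, with a log2 fold change of -0.45 (SE 0.19, unadjusted p 0.047, edgeR). Of 14 genes of the mTOR arm, 9 were lower and 5 higher, 0 at an unadjusted p under 0.05. The groups did not overlap for 4 higher genes (Mlst8, Rps6kb2, Tsc1 and Tsc2) and 0 lower genes. Over all genes those shares were 16.6% and 16.9%. Of the 42 assembly genes, 3 higher and 6 lower ones did not overlap, and of the 25 other TOP genes 0 and 0. Larp1, which binds TOP mRNAs, had 100, 123, 109 and 120 CPM.

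As comparison families, 79 mitochondrial ribosomal protein genes showed 32 lower and 47 higher, 1 and 2 of them at an unadjusted p under 0.05 (Mrpl53, and Mrps25 and Mrps10). Their median difference was 0.10 between the WT libraries and 0.059 between the CRFR1-KO libraries, against 0.75 and 0.47 in the cytosolic set. Of 34 proteasome genes, 25 were lower and 9 higher, and 1 was at an unadjusted p under 0.05 (Psmd4, lower). Over all genes 4.86% had such a p with edgeR. The proteasome genes were 73.5% lower with a median of -0.058, near the 74.4% and -0.055 of the cytosolic set. Over all genes 50.8% were lower. The groups did not overlap for 15 higher and 5 lower mitochondrial ribosomal protein genes. They did not overlap for 2 higher and 10 lower proteasome genes (16.6% and 16.9% of all genes). Every list had 0 calls past the adjusted threshold with edgeR.

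**Figure D5:**
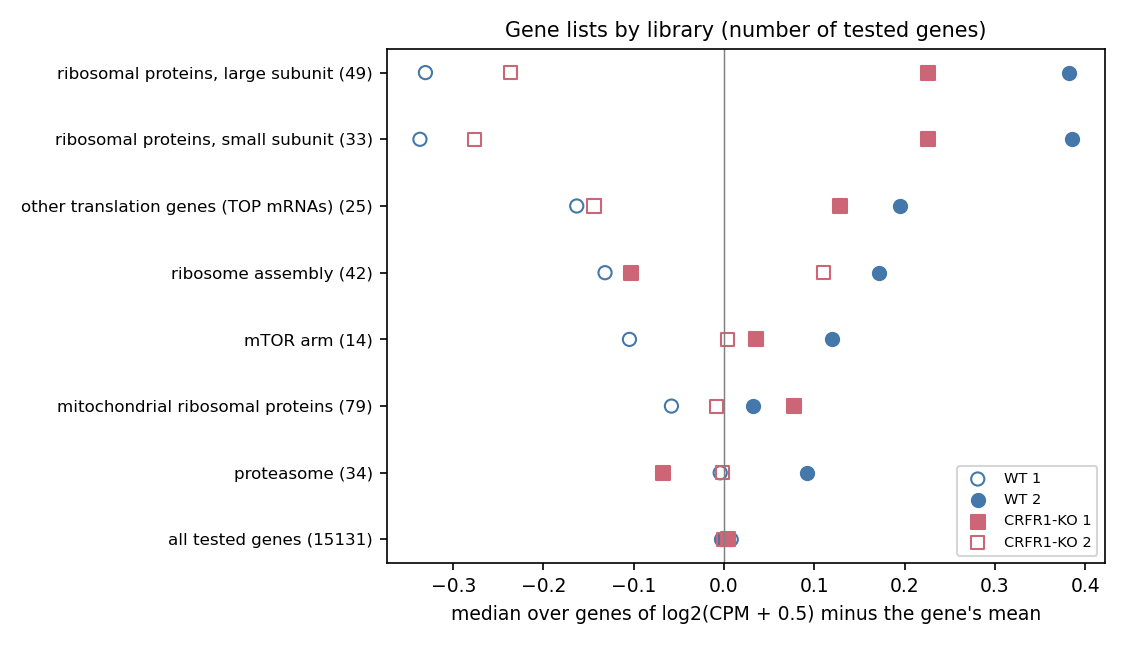
Median over the genes of each list of log2(CPM + 0.5) minus the gene's mean, for each library (circles WT, squares CRFR1-KO, filled for WT 2 and CRFR1-KO 1). The large and small subunit rows spread from -0.34 to 0.39 with both filled symbols on the right, and the mitochondrial and proteasome rows stay within 0.1 of 0.

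The promoters of 63 members were matched by symbol in the RefSeq table (75 promoters of 300 bases), and 22 members were not. The ETS-type motif CCGGAAG, searched on both strands, was in 34.7% of them and in 8.86% of all 32851 promoters of the same length. The YY1-type motif AAGATGGC was in 9.33% against 2.75%, the Sp1-type motif GGGCGG in 56.0% against 35.7%, and TATAAA in 9.33% against 13.6%. An annotated start of C followed by 4 pyrimidines was found in 20.0% of the members' promoters and in 2.51% of all. Of the genes shown above, Rps27, Rps27rt and Rps6 had such a start in the first 5 bases. CCGGAAG was in the Rps6 promoter, AAGATGGC in that of Rps27 and GGGCGG in that of Rpl7a. These are matches of letters in a window around the annotated start.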

How the data were processed

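RNA-seq libraries of 2 WT and 2 CRFR1-KO tissues were compared. The authors deposited 1 table of whole-number counts for 55401 Ensembl gene models, of which 55141 were given symbols from GENCODE M21. Per the labels' protocols, poly(A) RNA was made into strand-marked (dUTP) libraries. The submitters' processing notes name FastQC, DESeq2 and edgeR, while the aligner, counter and genome build behind the counts were not given in the sources used here. Counts of 4 were commoner than those of 3 or 5 (913 genes against 349 and 242 in WT 1), so 1 count may not be 1 read. Dividing the counts by 4 was among the alternatives.

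The main test was edgeR 4.0.16 (filterByExpr, TMM, quasi-likelihood F, two-sided, R 4.3.3) over 15131 genes. The alternatives were other scalings and filters, DESeq2 1.42.0, limma-voom (limma 3.58.1), a replicate block, each library left out, and gene models summed by shared exons or by -ps names. Summing copies found with blastn 2.17.0 was chosen after seeing the data. Named members were those called or at an unadjusted p under 0.05, the 5 highest and 5 lowest log2 fold changes, the 5 highest per kilobase, and fixed paralogues and markers. From each list up to 4 genes were eligible by smallest p, and other list genes named were chosen after their values were seen. The members and lists were chosen with earlier results of these data known. The code was tested on simulated data. The counts of 1 list are not reported here.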

Additional observations from a re-analysis of the deposited data

How the results depend on the processing

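Of 16 alternatives, 14 left the number of members past the adjusted threshold at 0. DESeq2 gave 2, and leaving out each library in turn gave 0 to 2 (2 without WT replicate 1), in each case Rps27rt and Rpl7a. Members at an unadjusted p under 0.05 numbered 3 in the main analysis, 1 to 10 with each library left out, and 0 with near-identical copies summed. Summing copies also reversed Rpl7a (0.038) and Rps27 (-0.32). Rpl6l was there replaced by the Rpl6 family (-0.063), of which it held 2.22% to 3.20%. With each library left out, signs turned for Rpl30 (-0.80 to 0.077), Rpl23a (-0.75 to 0.088), Rpl21 (-0.32 to 0.77), Rpl6l (-0.27 to 0.81), Rpl10 (-0.058 to 0.74) and Rpl32l (-0.35 to 1.55). The median over members ran from -0.37 to 0.37 and the log2 ratio of the summed level from -0.36 to 0.38. Leaving out 1 library leaves the lone one assumed to vary like the other group. The causes of these changes were not tested.

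The labels number the replicates of both genotypes, but same-numbered libraries did not deviate together (r = -0.066 over 15131 genes). A correlation over genes from so few libraries cannot show whether same-numbered libraries were paired. With the replicate block, 0 members passed the adjusted threshold, 3 had an unadjusted p under 0.05, and the median was -0.024 with 49 members below 0. With 2 libraries per genotype and a median standard error of 0.29, small differences are not detectable.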
